A study of Homo sapiens with 6 samples.

Results

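Fatty acid metabolism was examined through 34 genes for the activation, synthesis, remodelling, oxidation and storage of fatty acids, a list drawn up by function but with earlier results of these data known, with 1 probe set per gene (that with the highest mean level). Of these, 28 had a probe set that the platform annotation names, out of 14884 named genes in all. The other 6 (ACSL3, ACADM, ACADVL, ACADS, HADHA and HADHB) were not analysed here. The samples were 3 arrays of NR1D1 KO cells and 3 arrays of control cells of the MDA-MB-231 line, a human breast carcinoma line without estrogen, progesterone or HER2 receptors, and all 6 had been kept in 200 µM hydrogen peroxide (H2O2) for 72 h. NR1D1 encodes REV-ERBα, a heme-binding nuclear receptor that represses transcription and is part of the circadian clock. The labels do not say how the gene was knocked out or how many clones were used. The replicates are titled as biological, with no word on separate cultures, and p-values therefore reflect only how far these arrays spread, part of which may be technical. With no array of untreated cells, a difference in the response to peroxide and one present without it cannot be told apart.

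A free fatty acid enters metabolism as its coenzyme A thioester, made by long-chain (ACSL) or short-chain (ACSS) acyl-CoA synthetases. In the cytosol, ATP citrate lyase, acetyl-CoA carboxylase and fatty acid synthase build palmitate, which elongases (ELOVL) and desaturases (SCD, FADS) remodel, while in mitochondria the carnitine shuttle and the beta-oxidation enzymes break acyl-CoA down. In mouse liver, REV-ERBα and its corepressor complex are known to restrain lipid synthesis genes. Breast carcinoma cells both make fatty acids and take them up.

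The values are deposited log2 summaries, with array medians between 5.18 and 5.22. They can be compared between arrays for 1 probe set, but not between genes. The place of a marker among all probe sets by mean level is therefore a rough guide that does not settle the identity of the cells. The 6 measured of 8 mesenchymal markers of the line lay between the 89.1 and 99.6 percentiles. Of 8 luminal markers measured, ESR1, PGR and FOXA1 lay at the 49.96, 26.5 and 46.0 percentiles, but KRT8, GATA3, EPCAM, KRT19 and KRT18 lay at the 76.6 to 96.0 percentiles. Of 8 adipocyte markers 4 were measured (LEP, PLIN1, CIDEC and LPL), at the 21.8 to 43.7 percentiles, and 0 passed the test. Among the mesenchymal markers FN1 and VIM were higher in NR1D1 KO arrays (log2 changes 0.83 and 0.34) and CD44 was lower (-0.35). Of the luminal markers, 1 was lower in NR1D1 KO arrays (GATA3, log2 change -0.73, adjusted p = 0.00166) and 3 were higher (EPCAM, KRT18 and KRT19, by 0.35 to 0.41), and of 4 macrophage and leukocyte markers measured 1 was lower, the widely expressed lysosomal gene CD68 (-0.45). Those that passed the test were thus 3 of 6 mesenchymal, 4 of 8 luminal, 0 of 4 adipocyte and 1 of 4 leukocyte markers. The share over all named genes was 9.49%. The part of these markers in the results below was not tested. The annotation at hand named no probe set for NR1D1, whose level is therefore not given.

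The acyl-CoA synthetase genes held the 2 largest changes of the list, in opposite directions, and 23 of the 28 measured members did not pass the test. In NR1D1 KO arrays ACSS3 was 4.54-fold higher, and ACSL1 was 2.37-fold lower. ACSL5, ELOVL6 and SCD were lower by 1.29- to 1.31-fold. Of the 28 measured members, 5 had an adjusted p below 0.05 in limma's test (Benjamini-Hochberg over all 14884 genes), 1 higher and 4 lower. That is 17.9% of members, against 9.49% of all named genes (4.74% higher and 4.74% lower). The share over all genes includes dim genes. Without the dimmest 50% of genes, 1887 of the genes left were called, against 1412 of all 14884. Of the members left, 1 was then higher and 5 were lower. The 9.49% is thus no share of genes of like level, wherever it is given, and the part of level was not tested. The share at 2-fold or more was 2 of 28 members, against 0.954% of all genes. The median log2 change over the members was -0.043, against 0.0039 over all genes.

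**Figure D1:**
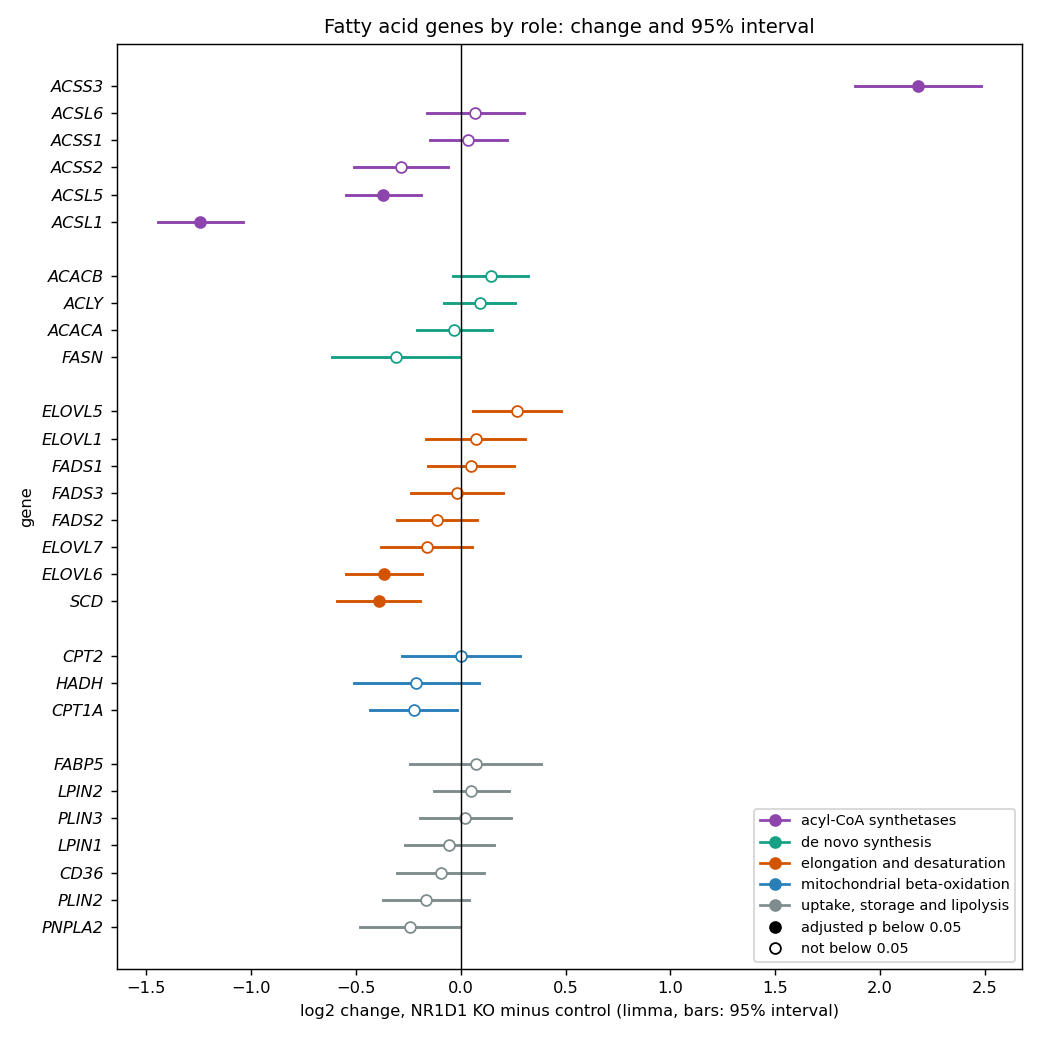
Log2 change (NR1D1 KO minus control, horizontal axis) of each measured member with its 95% interval from limma, in blocks by role; filled points passed an adjusted p of 0.05. ACSS3 lies at 2.18 and ACSL1 at -1.24, and all other members lie between -0.39 and 0.27.

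Within the synthetases, 3 of 6 measured genes passed, 1 higher and 2 lower, against 9.49% of all named genes. ACSS3, a mitochondrial synthetase that prefers short acids such as propionate, had log2 values of 6.63, 6.64 and 6.77 in NR1D1 KO arrays, against 4.80, 4.36 and 4.33 in control arrays. All KO values lay well above all control values, and the control arrays spread more (SD 0.26) than the KO arrays (SD 0.077, n = 3 each). The log2 change was 2.18 (95% interval 1.88 to 2.48, adjusted p = 8.92e-05). Here and below, each 95% interval is for 1 gene, without adjustment over genes, unlike the adjusted p beside it. The control values of ACSS3 lay below the array median, where the floor of an array can make a fold too small. No detection calls were used, so this was not tested.

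ACSL1, the long-chain synthetase best known for supplying acyl-CoA to oxidation and to triglycerides in muscle, liver and fat, read 7.69, 7.90 and 7.88 in NR1D1 KO arrays, against 9.01, 9.09 and 9.10 in control arrays. The groups did not overlap, and the log2 change of -1.24 (95% interval -1.45 to -1.04, adjusted p = 0.000141) was far larger than the SD of the KO arrays (0.12) or of the control arrays (0.048). Of the 20 nearest measured coding genes of ACSL1 on chromosome 4, 10 on each side, 15 had a log2 change below 0 and 6 passed as lower, with a median of -0.089. The same count gave 12 below 0 and 4 passed as lower for ELOVL6, 13 and 1 for ACSL5, 11 and 1 for ACSS3 and 9 and 0 for SCD. Neighbours that passed as higher numbered 2 each for ELOVL6, ACSL5 and ACSS3, and 0 for ACSL1 and SCD. Over all named genes, 7295 of 14884 had a log2 change below 0, and 4.74% passed as lower and 4.74% as higher. The part of neighbours in these results was not tested. ACSL5, a long-chain synthetase of mitochondria and the endoplasmic reticulum, read 9.63, 9.62 and 9.51 in NR1D1 KO arrays and 9.94, 9.95 and 9.98 in control arrays. This is a smaller fall by 0.37 on the log2 scale (95% interval -0.55 to -0.19, adjusted p = 0.0216) with no overlap between groups.

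The remaining synthetases did not pass the test. ACSS2, which makes acetyl-CoA from acetate in cytosol and nucleus, read 7.43, 7.46 and 7.69 in NR1D1 KO arrays and 7.73, 7.90 and 7.80 in control arrays. The groups did not overlap, but the gap between the nearest arrays was small (log2 change -0.29, 95% interval -0.51 to -0.060, adjusted p = 0.121). ACSS1, the mitochondrial acetate enzyme, had a log2 change of 0.036 (95% interval -0.15 to 0.22). ACSL6, an enzyme known mainly from brain, averaged 4.37 in NR1D1 KO arrays and 4.30 in control arrays, a level below the array median. The long-chain synthetases gave 2 lower calls among 3 measured genes and the short-chain synthetases 1 higher call among 3. The difference between these families was not tested.

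ACSL4, which activates polyunsaturated acids and is not among the 34 genes, was also lower, at 9.45, 9.46 and 9.50 in NR1D1 KO arrays against 10.33, 10.34 and 10.45 in control arrays (log2 change -0.90, adjusted p = 0.000332).

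**Figure D2:**
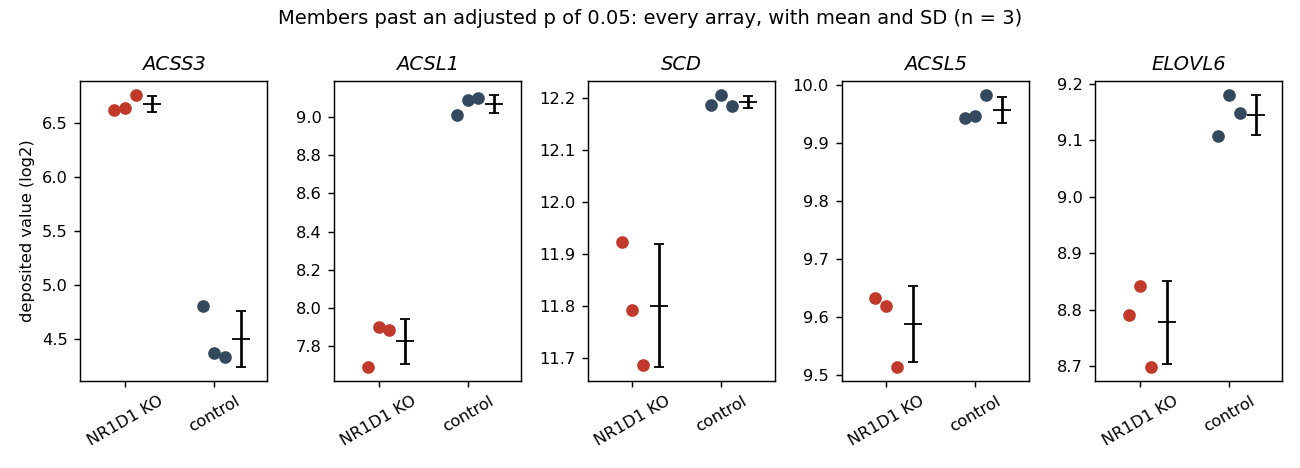
Deposited log2 values of the 5 members that passed an adjusted p of 0.05, 1 point per array, with mean and SD beside each group (n = 3); each panel has its own vertical axis, which does not start at 0. In every panel the NR1D1 KO and control arrays are apart, with ACSS3 higher and ACSL1, SCD, ACSL5 and ELOVL6 lower in NR1D1 KO arrays.

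None of the 4 genes of de novo synthesis passed the test, and the 95% intervals bound their changes. ACLY, which cleaves citrate to cytosolic acetyl-CoA, averaged 11.30 ± 0.014 in NR1D1 KO arrays and 11.21 ± 0.039 in control arrays (SD, n = 3 each), a log2 change of 0.091 with an interval of -0.078 to 0.26. The acetyl-CoA carboxylase genes ACACA and ACACB, whose products make malonyl-CoA for synthesis and for the control of mitochondrial uptake, had log2 changes of -0.032 (interval -0.21 to 0.15) and 0.14 (interval -0.035 to 0.32). The farthest that any of these 3 intervals reaches from 0 is 0.32, for ACACB.

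FASN, the fatty acid synthase gene, had the largest change of the 4, but it varied among the knockout arrays. It read 9.45, 9.81 and 9.96 in NR1D1 KO arrays and 10.15, 9.96 and 10.05 in control arrays. NR1D1 KO replicate 1 was far below the other two, and replicate 3 lay within the control range. The log2 change was -0.31 (95% interval -0.62 to -0.0054, adjusted p = 0.211), and it was -0.17 without NR1D1 KO replicate 1 (adjusted p = 0.389). Under all alternative settings given below, the FASN change ranged from -0.42 to -0.17, with a lowest adjusted p of 0.0940 (limma).

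Among the 8 elongases and desaturases, 2 fell and 0 rose, against 4.74% lower and 4.74% higher among all named genes. SCD, the stearoyl-CoA desaturase that makes oleate-type monounsaturated acids, read 11.92, 11.79 and 11.69 in NR1D1 KO arrays, against 12.19, 12.21 and 12.18 in control arrays. The control arrays were nearly identical (SD 0.012) and the KO arrays spread more (SD 0.12), with no overlap. The log2 change was -0.39 (95% interval -0.59 to -0.19, adjusted p = 0.0271). A second SCD probe set, with a mean of 7.21 in NR1D1 KO arrays and 8.005 in control arrays, had a log2 change of -0.79 (adjusted p = 0.00201 over all named probe sets), so the size of the SCD change depends on the probe set and its direction does not.

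ELOVL6, which elongates palmitate and so prepares the substrate of SCD, read 8.79, 8.84 and 8.70 in NR1D1 KO arrays, against 9.11, 9.18 and 9.15 in control arrays. The groups did not overlap (log2 change -0.37, 95% interval -0.55 to -0.19, adjusted p = 0.0243). ELOVL5, which elongates polyunsaturated acids, measured the other way, at 9.36, 9.59 and 9.41 in NR1D1 KO arrays and 9.10, 9.22 and 9.23 in control arrays. These groups did not overlap either, but the change of 0.27 did not pass (95% interval 0.059 to 0.48, adjusted p = 0.117).

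The others had intervals that include 0. ELOVL1, for very long saturated acids, had a log2 change of 0.073 and ELOVL7 one of -0.16. The desaturase genes FADS1 and FADS2, whose products act in turn on polyunsaturated acids, had changes of 0.047 and -0.11, and their family member FADS3 one of -0.017.

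The 3 falls of moderate size rest on thin margins. ACSL5 missed the threshold without any 1 array other than NR1D1 KO replicate 1, 5 of 6 cases, with an adjusted p of up to 0.0893. SCD missed it in the same 5 cases (up to 0.0886), and ELOVL6 in all 6 (0.0503 to 0.0884). The lower members thus numbered 1 to 3 with an array left out. ACSS3 and ACSL1 passed in 6 of 6 cases.

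**Figure D3:**
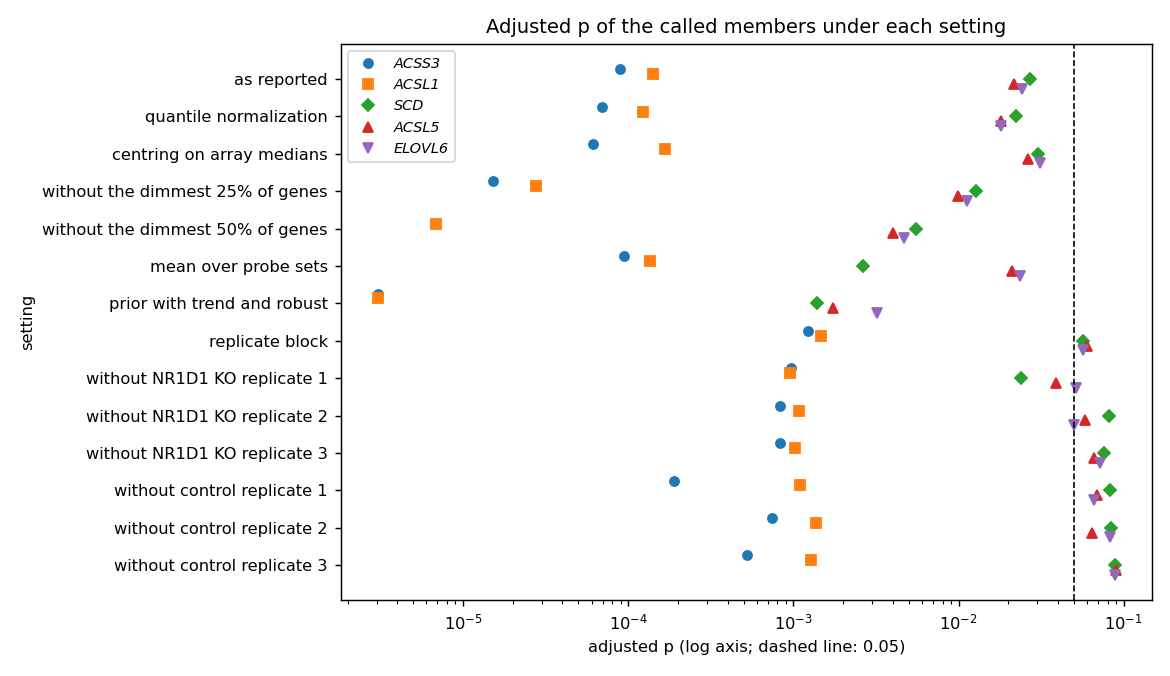
Adjusted p (log axis) of the 5 called members as reported and under each alternative setting; the dashed line marks 0.05. ACSS3 and ACSL1 stay left of the line wherever they were tested (ACSS3 has no point without the dimmest 50% of genes), while ACSL5, SCD and ELOVL6 move to between 0.0503 and 0.0893 in most cases with an array left out.

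Sequence upstream of the start site is given for the 4 members that were lower. The 250 bases before the start site, from the RefSeq promoter table (GRCh38.p14), are printed 5′ to 3′ on the gene's strand. They are ACSL1 at chr4:184825969-184826218 (minus strand), ACSL5 at chr10:112375018-112375267 (plus), ELOVL6 at chr4:110198616-110198865 (minus) and SCD at chr10:100346983-100347232 (plus). Capitals mark the motif AGGTCA, the half-site of nuclear receptors, on either strand.
ACSL1: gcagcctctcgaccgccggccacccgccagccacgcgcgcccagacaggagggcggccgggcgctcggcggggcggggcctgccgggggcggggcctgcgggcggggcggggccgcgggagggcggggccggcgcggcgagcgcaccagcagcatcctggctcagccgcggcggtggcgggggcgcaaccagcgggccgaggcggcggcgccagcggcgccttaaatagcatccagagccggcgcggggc
ACSL5: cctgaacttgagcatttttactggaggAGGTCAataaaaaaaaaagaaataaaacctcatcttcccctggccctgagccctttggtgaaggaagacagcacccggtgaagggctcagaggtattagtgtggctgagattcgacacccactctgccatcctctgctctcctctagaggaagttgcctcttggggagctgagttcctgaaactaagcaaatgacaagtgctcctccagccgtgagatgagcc
ELOVL6: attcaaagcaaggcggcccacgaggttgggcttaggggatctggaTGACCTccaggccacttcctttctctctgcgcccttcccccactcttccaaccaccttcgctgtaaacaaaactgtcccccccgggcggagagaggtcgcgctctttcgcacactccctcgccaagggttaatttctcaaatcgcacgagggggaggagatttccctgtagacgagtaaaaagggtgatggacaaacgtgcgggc
SCD: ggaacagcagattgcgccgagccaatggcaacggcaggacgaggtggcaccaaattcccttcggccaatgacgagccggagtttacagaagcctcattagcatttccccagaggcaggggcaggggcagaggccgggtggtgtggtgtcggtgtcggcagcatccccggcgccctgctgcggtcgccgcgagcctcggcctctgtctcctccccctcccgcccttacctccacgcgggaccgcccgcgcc

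GC content was 83.6% for ACSL1, 68% for SCD, 57.2% for ELOVL6 and 50% for ACSL5, against a median of 58% over 35116 promoter windows. AGGTCA was found, on either strand, in ACSL5 at bases -223 to -218 and in ELOVL6 at -205 to -200, and in neither ACSL1 nor SCD. Windows were matched for 25 of the 28 measured members, and the 3 without one were ACSS3, FASN and FABP5. The motif was in 4 of the 25 windows (16%), against 12.1% of all windows. The longer TAGGTCA, the core of the element bound by REV-ERB and ROR receptors, which contains AGGTCA, was in 0 of the 25 (1.61% of all windows). The direct repeats of AGGTCA with 1 or 2 bases between copies were also in 0 of the 25 (0.0171% and 0.00285% of all windows). TCACCCCAC, a sterol element, was in 1 of the 25, PNPLA2 (0.362% of all windows), and the E-box CACGTG in 2, ELOVL5 and PLIN2 (6.34% of all windows). A missing match says only that these letters are not in this window.

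Mitochondrial beta-oxidation was covered by 3 of its 8 genes, and none of the 3 passed. CPT1A, the carnitine palmitoyltransferase of the outer membrane and a control point of the pathway, read 8.64, 8.49 and 8.44 in NR1D1 KO arrays, against 8.68, 8.84 and 8.70 in control arrays. The groups were separated by a narrow gap (log2 change -0.22, 95% interval -0.43 to -0.019, adjusted p = 0.18). HADH, a hydroxyacyl-CoA dehydrogenase for short chains, read 7.45, 7.925 and 7.90 in NR1D1 KO arrays and 7.93, 8.03 and 7.96 in control arrays, so the groups barely missed each other. Its lower mean came largely from NR1D1 KO replicate 1, and the log2 change of -0.21 (interval -0.51 to 0.085) was -0.060 without that array. Under all alternative settings the HADH change ranged from -0.30 to -0.060. CPT2, of the inner membrane, had nearly equal group means (6.67 ± 0.22 in NR1D1 KO and 6.68 ± 0.11 in control arrays, SD, n = 3 each), with an interval of -0.28 to 0.28. A second CPT2 probe set had a log2 change of 0.052.

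Of the 7 genes of uptake, storage and lipolysis, 0 passed, against 9.49% of all named genes. PNPLA2, which encodes the triglyceride lipase ATGL, had the largest change. It read 7.21, 7.51 and 7.50 in NR1D1 KO arrays and 7.69, 7.57 and 7.70 in control arrays, which did not overlap (log2 change -0.24, 95% interval -0.48 to -0.0047, adjusted p = 0.211). A dimmer PNPLA2 probe set had a log2 change of -0.060. The lipid droplet coat genes PLIN2 and PLIN3 had log2 changes of -0.17 and 0.022, the phosphatidate phosphatase genes LPIN1 and LPIN2 changes of -0.055 and 0.051, and the fatty acid-binding protein gene FABP5 one of 0.072. CD36, the fatty acid uptake receptor, averaged 3.12 in NR1D1 KO arrays and 3.21 in control arrays, at the 13.6 percentile of probe sets, a dim level at which the floor of the array can hide a change.

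Side by side, the role groups had median log2 changes of -0.12 for synthetases, 0.030 for de novo synthesis, -0.065 for elongation and desaturation, -0.21 for beta-oxidation and -0.055 for uptake, storage and lipolysis. The numbers of called genes were 3 of 6, 0 of 4, 2 of 8, 0 of 3 and 0 of 7, against 9.49% of all named genes. In groups this small, 0 called genes is little different from that share. The difference between role groups was not tested, and the beta-oxidation median rests on 3 genes and was -0.060 without NR1D1 KO replicate 1. Over all members, the 3 values of the NR1D1 KO group lay wholly above or below those of the control group for 12 of 28 genes, or 42.9%, against 28.7% of all named genes. Besides the 5 called members these were ACSS2, ACLY, ACACB, ELOVL5, CPT1A, HADH and PNPLA2.

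**Figure D4:**
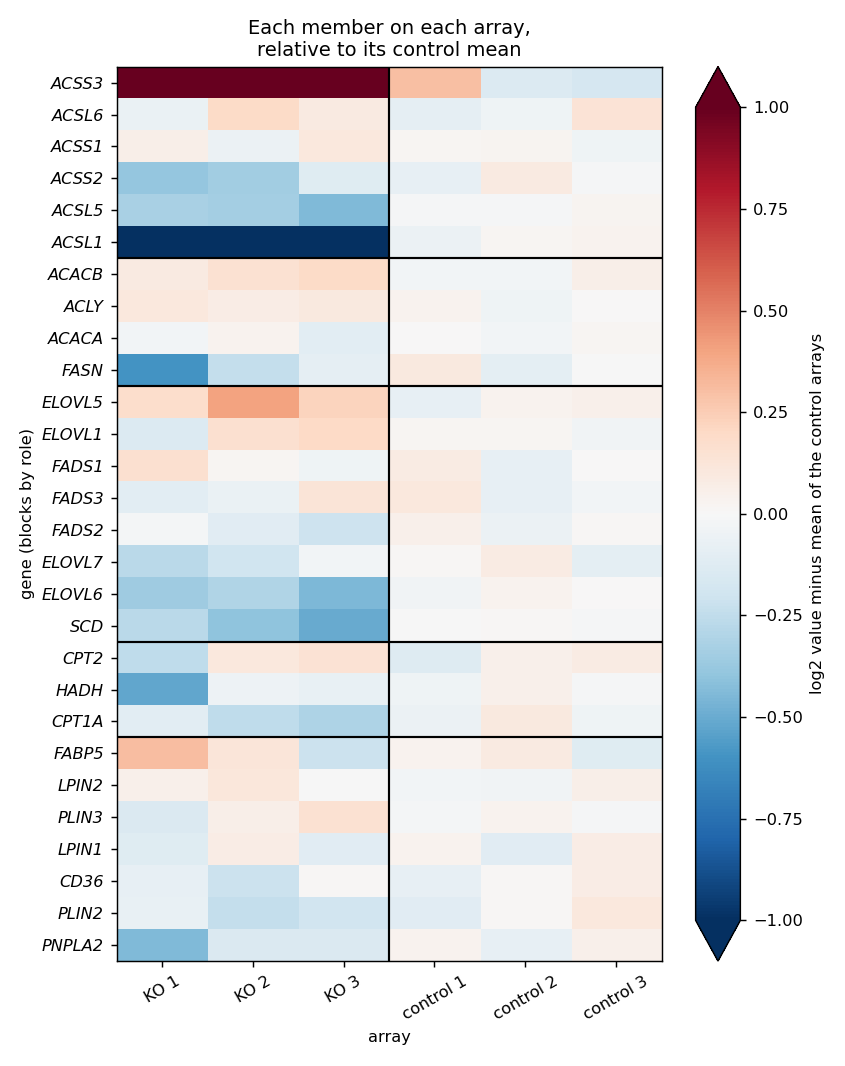
Each measured member (rows, in blocks by role) on each array (columns, NR1D1 KO left of control), coloured by its log2 value minus the mean of the control arrays; the colour scale ends at -1 and 1. ACSS3 and ACSL1 stand out on all 3 NR1D1 KO arrays, while the lower FASN, HADH and PNPLA2 values are strongest on NR1D1 KO replicate 1.

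The wider pathway was read from 156 further genes in 5 lists, of which 82 were measured. Among these, 4 rose and 7 fell, or 13.4% called against 9.49% of all named genes. By list, the shares called were 10% for other synthetases, transporters and thioesterases and 27.3% for other synthesis, elongation and desaturation. They were 6.67% for other oxidation genes, 20% for glycerolipid and droplet genes and 6.25% for regulators. The shares of oxidation genes and regulators are 1 gene each, of 15 and 16. With that of the other synthetases, they were little different from the share over all genes. The largest change was that of G0S2, which encodes the inhibitor of the lipase ATGL. G0S2 read 7.76, 7.73 and 7.53 in NR1D1 KO arrays, against 9.13, 9.36 and 9.26 in control arrays, 2.98-fold lower with no overlap (adjusted p = 9.43e-05). Beside it, its target gene PNPLA2 had the smaller change given above.

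The droplet and glycerolipid list had 3 falls and 1 rise among 20 measured genes. DGAT1 and DGAT2, whose products catalyse the last step of triglyceride synthesis, were both lower. DGAT1 averaged 7.64 ± 0.055 in NR1D1 KO arrays and 8.24 ± 0.055 in control arrays (SD, n = 3 each), 1.51-fold lower (adjusted p = 0.00276), and DGAT2 was 1.33-fold lower (adjusted p = 0.0187). FITM2, which promotes droplet formation, was 1.35-fold higher (adjusted p = 0.0448).

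The other synthesis, elongation and desaturation genes gave 1 rise and 2 falls among 11 measured. SCD5, a paralog of SCD, changed in the opposite direction to it. It read 7.95, 7.95 and 7.93 in NR1D1 KO arrays and 7.14, 7.24 and 6.95 in control arrays, 1.79-fold higher with no overlap (adjusted p = 0.00132). CBR4, a reductase subunit of mitochondrial fatty acid synthesis, was 1.54-fold lower (adjusted p = 0.0164) and HACD4, a hydroxyacyl-CoA dehydratase of elongation, 1.31-fold lower (adjusted p = 0.0472).

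Of 20 measured genes for other synthetases, transporters and thioesterases, ACSL4 fell and 1 rose, the acyl-CoA thioesterase gene ACOT13 (1.48-fold higher, adjusted p = 0.0372). Of 15 measured genes for other mitochondrial and peroxisomal oxidation steps, 1 rose and 0 fell. This was ECI2, an enoyl-CoA isomerase gene, at 8.69, 8.79 and 8.77 in NR1D1 KO arrays and 8.37, 8.36 and 8.29 in control arrays (1.33-fold higher, adjusted p = 0.014). Of 16 measured regulators 1 fell, INSIG2, whose product holds the sterol sensor SCAP and with it SREBP in the endoplasmic reticulum. It was 1.45-fold lower (adjusted p = 0.00899). With each array left out in turn, G0S2, ACSL4, SCD5, DGAT1 and INSIG2 passed in 6 of 6 cases, ECI2 in 4, CBR4 and DGAT2 in 3, and ACOT13, HACD4 and FITM2 in 1.

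**Figure D5:**
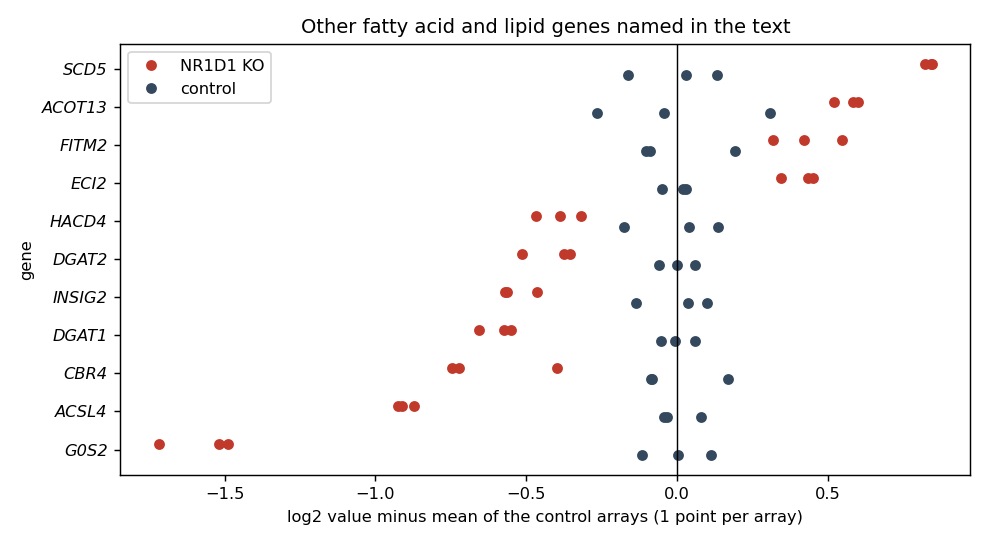
The 11 called genes of the wider pathway, as log2 values minus the mean of the control arrays, 1 point per array, with NR1D1 KO drawn just above control for each gene. The groups are apart for every gene shown, most widely for G0S2, with ACSL4 and SCD5 next.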

How the data were processed

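Total RNA was copied with a whole-transcript amplification kit and hybridised to GeneChip arrays (per the labels' protocols). In the table that the authors deposited there is 1 log2 value per probe set and array, taken as log2 from a range of 1.16 to 13.7. The quantiles of the arrays were near-equal, which would follow from normalization between arrays before deposit but does not by itself show it. How background was corrected and probes were summarized is not given in the sources used here. Of 53617 probe sets, 16098 carried 1 gene symbol, 0 several and 37519 none; all 16098 matched RefSeq (GRCh38.p14) by gene ID and 0 symbols changed. Where a gene had several probe sets (779 genes), the one with the highest mean was used, and no gene was filtered out. The test between groups was that of limma (version 3.58.1, R version 4.3.3; lmFit, eBayes, two-sided), adjusted by Benjamini-Hochberg over all 14884 genes; the fit was tested on simulated data. No 2 arrays were identical. Members and lists were chosen with earlier results of these data known, so their calls are no independent support. Every measured member is named, with each array's values for called members and for the largest change in a role group; from each wider list up to 4 called genes are named. Correlations with ACSS3 over the arrays were left out, since 6 arrays in 2 groups would restate the group difference. Alternatives were 2 normalizations, 2 filters, the mean over probe sets, a trended robust prior, a replicate block and leaving out each array. Plots used Python 3.11.15 and matplotlib 3.10.9.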

Additional observations from a re-analysis of the deposited data

How the results depend on the processing

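The calls, medians and log2 changes of members, and the calls of the wider lists, were recomputed under 13 alternatives. The overlap, neighbour and marker counts were not. Of 28 members, 23 kept their call and side of the threshold under all that could be run, 3 (ACSL5, ELOVL6 and SCD) lost a call under at least 1, and 2 (ACSS2 and ELOVL5) gained one. No called member changed direction. Among members not called, CPT2 changed sign in 6 of 14 cases (its second probe set included), FADS3 in 3 and PLIN3 in 2. ACACA, FADS1 and FABP5 did so in 1 case each. The replicate numbers are not known to pair the arrays: deviations of same-numbered arrays correlated at -0.093 to 0.013. With the replicate block, lower members numbered 1, with 1 among synthetases and 0 among elongases and desaturases, as ACSL5 (adjusted p = 0.0597), ELOVL6 and SCD (0.0568 each) missed the threshold, and all genes called numbered 1050 of 14884. Without the dimmest 25% of genes, which removes ACSL6 and CD36, the synthetase median was -0.29 and the uptake and storage median -0.016. Without the dimmest 50%, which also removes ACSS3 and FABP5, the synthetases had 0 rises and a median of -0.33. The median of all members was then -0.084, and elongases and desaturases had 1 rise (ELOVL5). The filters alter no log2 change, so these medians moved only through the genes removed. With the trended robust prior members had 2 rises, 1 of them ELOVL5. Over all genes the calls also rose from 1412 as reported, to 1771 and 1887 under these 2 filters and 1953 with this prior. The filters leave fewer genes, so the share called over all genes rose by more than these counts. The member counts under the filters and this prior are therefore not to be read against the 9.49% called as reported. Leaving out 1 array at a time gave 723 to 1049 genes called in all, against 1412, 1 to 3 lower members, 1 to 2 lower synthetases, 0 to 1 lower elongases and desaturases, a median of -0.090 to -0.025 for that group and of -0.088 to -0.016 for uptake and storage. The median ranged from -0.24 to -0.060 for beta-oxidation, where NR1D1 KO replicate 1 gave the smallest size, from 0.013 to 0.048 for de novo synthesis, from -0.16 to -0.096 for synthetases and from -0.073 to -0.025 for all members. Fewer arrays and, under the filters, fewer genes enter these fits. With 3 arrays a group and a median standard error of 0.101 on the log2 scale, small changes can be missed.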

Other observations

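The genes of the wider lists with an adjusted p between 0.05 and 0.1 (limma) were 5, chosen after their values were seen. The groups did not overlap for any of them, against no overlap for 28.7% of all named genes. A choice by small p makes such separation likely, so it is no further support. SREBF1, which encodes the transcription factor SREBP-1 that drives fatty acid synthesis genes, read 7.02, 7.31 and 7.24 in NR1D1 KO arrays and 7.57, 7.46 and 7.48 in control arrays (log2 change -0.31, adjusted p = 0.0904). ACSF2, an acyl-CoA synthetase family gene, read 6.62, 6.59 and 6.58 in NR1D1 KO arrays and 6.77, 6.98 and 6.97 in control arrays (log2 change -0.31, adjusted p = 0.0654). ACBD3, an acyl-CoA-binding domain gene of the Golgi, had a log2 change of -0.25 (adjusted p = 0.0712). Measured higher were CRAT, the carnitine acetyltransferase gene, at 0.31 (adjusted p = 0.0717), and GPAT3, of the first step of glycerolipid synthesis, at 0.33 (adjusted p = 0.0654). In the list that holds ACSF2 and ACBD3, the genes called lower numbered 1 as reported and 3 without the dimmest 25% or 50% of genes or with the trended robust prior. More genes were also called in all under these 3 settings.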
